A study of Homo sapiens with 8 samples.

Results

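The genes described are DUOX2 and 8 other genes that encode catalytic or regulatory subunits of the NADPH oxidases: DUOX1, NOX4, NOX5, CYBB, CYBA, NCF1, NCF4 and RAC2. They are 9 of the 19775 genes that the arrays name by a probe set of their own, and 19 probe sets name one of them alone. DUOX2 was selected on its high signal in cells given CEP701, and the family was built around it, so its values wherever those cells or their controls enter are given as a description with no test. The other members belong to the family by function. Each gene was followed through its probe set of highest mean signal over all 8 arrays, and its other probe sets were used as a check.

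The arrays hold RNA from cells labelled HEL, a human erythroleukaemia line that carries an activating JAK2 mutation, with 2 arrays in each of 4 groups. In the drug arm, cells were given CEP701 (lestaurtinib, which blocks JAK2 and FLT3 kinase activity) at 0.5 µM for 16 h, or its vehicle, DMSO. In the shRNA arm, cells carried a stable lentiviral pLKO vector with either an shRNA against PRMT5, which methylates arginines of histones and other proteins, or a scramble control. The series was set up to compare the response to the drug with that to the knockdown. The knockdown used 1 shRNA sequence, and the labels do not state if the 2 arrays of a group are separate cultures, so a p-value reflects only array-to-array spread, which may be technical.

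NADPH oxidases are membrane enzymes that pass electrons from NADPH to oxygen, making superoxide or hydrogen peroxide. CYBB, also called gp91phox or NOX2, forms with CYBA (p22phox) the membrane core of the phagocyte oxidase. That core is switched on when cytosolic proteins, among them NCF1 (p47phox), NCF4 (p40phox) and the GTPase RAC2, reach it. NOX4 also needs CYBA, while NOX5 and the dual oxidases DUOX1 and DUOX2 are driven by calcium. The dual oxidases release hydrogen peroxide, are best known from thyroid and mucosal epithelium, and leave the endoplasmic reticulum with the help of the maturation factors DUOXA1 and DUOXA2.

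The values are MAS5 signals, a linear measure of probe set brightness, and a gene was tested if 2 or more arrays exceeded 60.0, the median signal. Of the 9 members, 8 met this and NOX4 did not. Differences are on the scale of log2(signal + 10), which understates the change of dim genes, and come from 1 limma fit of 14162 genes. A difference passed at an adjusted p (Benjamini-Hochberg over all these genes) under 0.05. At an unadjusted p under 0.05, 2092 of all genes were higher and 1307 lower with CEP701, and 338 and 609 with PRMT5 shRNA. For the CEP701 effect less the PRMT5 shRNA effect they were 1717 and 1097. Unadjusted counts below are to be read beside these. Having 2 arrays in a group limits the precision of every value.

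The targeted gene, PRMT5, read 1794 and 984 on the scramble arrays and 664 and 315 on the PRMT5 shRNA arrays, and between 2750 and 3419 in the drug arm. Its difference of -1.52 on the log2 scale did not pass (adjusted p = 0.217 in limma). It passed with a block for the shared title suffixes of the shRNA arrays and the replicate numbers of the drug arrays (limma adjusted p = 1.56e-04). The arms stood far apart, since 45.8% of all genes differed between scramble and DMSO. GATA1, KLF1 and ITGA2B, markers of the erythroid and megakaryocytic lineage of this line, were above the minimum on all 8 arrays. Of 10 tested markers of that lineage, 4 were higher with scramble than with DMSO (PF4, THBS1, VWF and EPOR) and 1, GATA1, was lower. That share was close to the 45.8% of all genes, so it does not set the lineage apart. The summed signal of these markers was 50020 to 89908 in the shRNA arm and 23524 to 41888 in the drug arm. Most of its rise from DMSO to scramble was PF4, with means of 1853 and 35492, and THBS1, with means of 912 and 11480. All 10 listed phagocyte markers, MPO and ELANE among them, were above the minimum on all 4 shRNA arm arrays. Of the 10, 6 were below it on both CEP701 arrays and 6 on both DMSO arrays. These were not the same 6, as AZU1 read 61.5 and 70.7 with DMSO and MPO 63.5 on 1 CEP701 array. The summed signal of the 10 was 44465 to 76043 in the shRNA arm and 5655 to 9438 in the drug arm. EPCAM, an epithelial marker, read 484 to 2753 in the shRNA arm and 23.3 to 49.8 in the drug arm. Of 7 tested markers of endothelium and fibroblasts, 4 were lower with scramble than with DMSO and 0 higher (57.1%, against 45.8% of all genes). The 8 listed had summed signals of 3915 to 7781 in the shRNA arm and 11489 to 16870 in the drug arm. Virus, selection, culture, hybridization and any difference in cell stock all go with the arm and cannot be told apart. In such bulk samples more cells of a type cannot be told apart from more RNA per cell. RNA integrity was read as the 5' over 3' ratio of control probe sets. For actin it ranged from 0.116 to 0.161 with CEP701 and from 0.198 to 0.199 with DMSO. It ranged from 0.141 to 0.179 with scramble and from 0.187 to 0.335 with PRMT5 shRNA. The GAPDH ratio gave another order of the groups. It was 0.787 to 0.856 with CEP701, 0.809 to 0.882 with DMSO, 0.846 to 0.883 with scramble and 0.729 to 0.778 with PRMT5 shRNA.

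**Figure D1:**
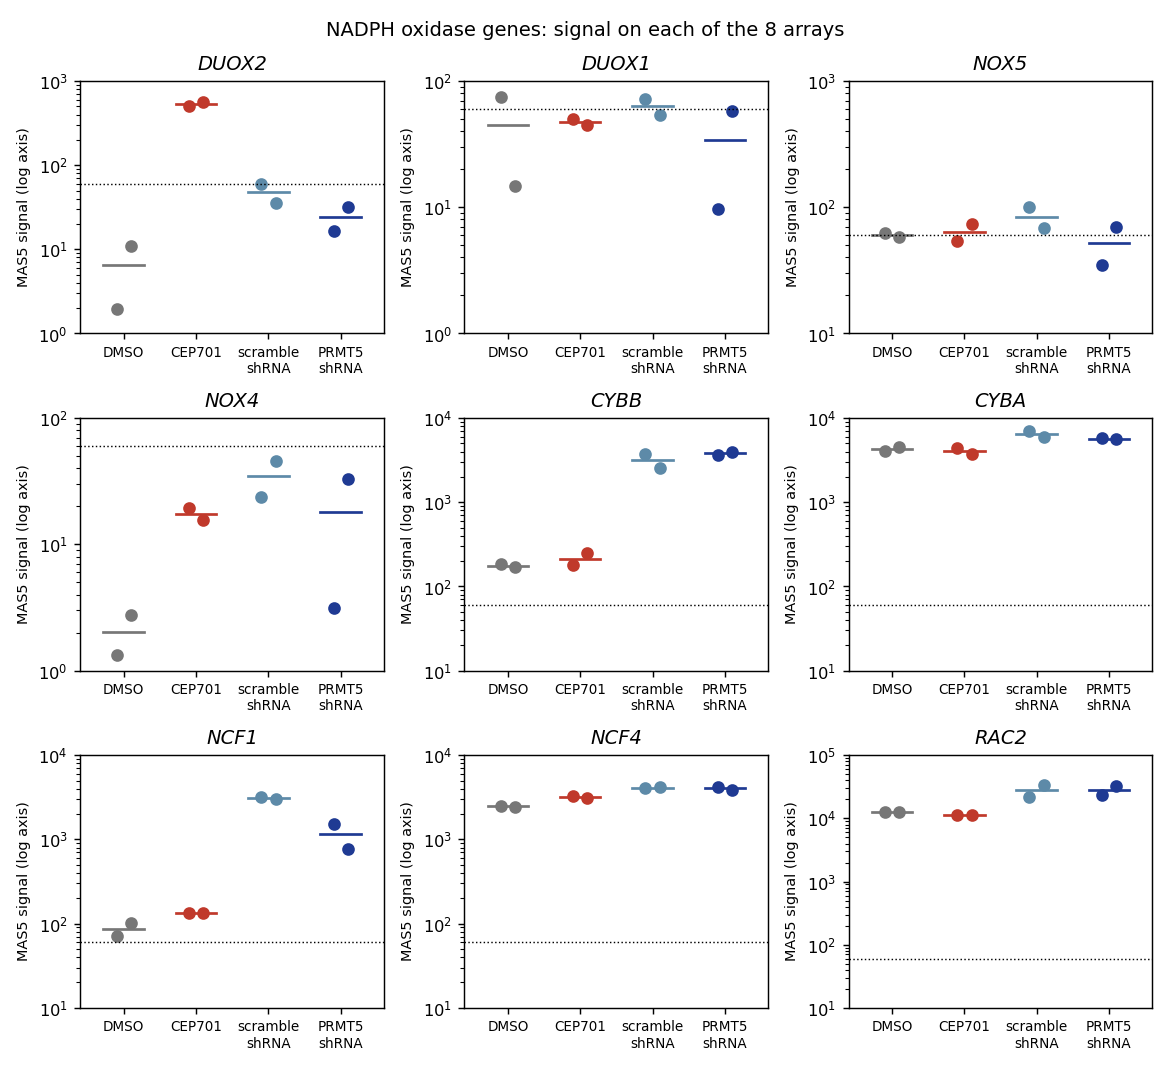
MAS5 signal of the 9 oxidase genes on each of the 8 arrays. Points are arrays, with 2 per group, the bar is the group mean, the y axis is logarithmic with its own range in each panel, and the dotted line is the minimum of 60.0. DUOX2 is above the line only on the CEP701 arrays, at 501 and 565, and CYBB and NCF1 are at least 5.79 times higher on every shRNA arm array than on any drug arm array.

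DUOX2 was chosen for its high signal with CEP701, so its distance from the other members in the drug arm follows from that choice. Its only probe set read 501 and 565 with the drug and 1.94 and 10.9 with vehicle. In the shRNA arm it read 59.8 and 35.8 with scramble and 16.5 and 31.5 with PRMT5 shRNA. The groups of the drug arm did not overlap, with CEP701 above DMSO, as for 36.3% of all genes. The CEP701 arrays were the only ones above the minimum, so the gene could be fitted through that group alone. The CEP701 mean of 533 ± 45.7 (SD, n = 2) was 8.88 times the minimum, against 6.43 ± 6.34 with DMSO. The log2 difference was 5.10 ± 0.51 (SE), or 34.3-fold with 10 added to each signal. That size rests on the added constant, because the DMSO signals are below the minimum: it was 6.49 with 1 added and 3.37 with 50 added.

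In the shRNA arm DUOX2 did not pass. PRMT5 shRNA minus scramble was -0.77 ± 0.51 (SE; limma adjusted p = 0.849, 0.592 with the block and 0.889 with no minimum), at -1.39 and -0.14 within the pairs. Both PRMT5 shRNA arrays were below both scramble arrays, as were 16.1% of all genes, but all 4 signals were under the minimum, so the comparison says little about DUOX2 in these cells. Scramble minus DMSO was 1.84 on this scale, between groups that were both below the minimum, and is given as a description. The CEP701 effect exceeded the PRMT5 shRNA effect by 5.87.

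DUOXA2, which carries DUOX2 to the cell surface, was also higher with CEP701. It read 129 and 115 with the drug and 11.4 and 6.85 with vehicle. The 4 shRNA arm arrays lay between 5.98 and 11.1, within the range of DMSO or close to it. The CEP701 mean of 122 ± 10.2 (SD, n = 2) was 2.03 times the minimum, against 9.13 ± 3.22 with DMSO. The difference of 2.80 ± 0.65 (SE), 6.94-fold with 10 added, passed (limma adjusted p = 0.0419). DUOXA2 met the minimum only through the 2 CEP701 arrays, and the fold is set against signals under it. In a fit of all genes with no minimum the adjusted p was 0.0190. It did not pass without either DMSO array (adjusted p = 0.144 and 0.209), with 1 added to the signals (0.0801), with quantile normalization (0.0575) or with scaling to the poly-A controls (0.0630). Over 17 alternatives the adjusted p ran from 4.20e-03 to 0.209 and passed in 12. PRMT5 shRNA minus scramble was -0.13 for DUOXA2 (adjusted p = 0.994), and the difference between the effects, 2.92, did not pass (adjusted p = 0.135).

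DUOX2 and DUOXA2 lie head to head on chromosome 15, in the order DUOX2, DUOXA2, DUOXA1 and DUOX1, and their annotated starts are 153 bases apart. Since the pair was high on the same 2 arrays, the interval between the starts is shown, chr15:45114173-45114325 in RefSeq (GRCh38.p14), read 5′ to 3′ on the minus strand, the strand of DUOX2. It lies upstream of both genes. Capitals mark motif matches.
DUOX2 to DUOXA2: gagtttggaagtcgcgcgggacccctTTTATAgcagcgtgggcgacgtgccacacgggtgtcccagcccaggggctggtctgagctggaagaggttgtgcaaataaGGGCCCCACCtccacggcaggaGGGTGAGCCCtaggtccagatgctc
The run TTTATA near its DUOXA2 end is TATAAA on the strand of DUOXA2, a motif found in 6.82% of 35116 RefSeq promoter windows of this length. The NF-kB motif, GGG and CC with 5 bases of any kind between them, matched 3 times at 2 places, counting both strands, and is found in 43.6% of those windows. No match was found for the STAT motif TTCNNNGAA, the FOXO motif GTAAACA, the GATA motif AGATAA, the AP-1 motif TGANTCA, the PU.1 motif GAGGAAGT or CCAAT. Both strands were searched for these 8 motifs. A match is a description of the letters and says nothing about binding.

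Markers of epithelium and thyroid, the tissues DUOX2 is best known from, did not pass with CEP701. The 10 listed markers had summed signals of 480 and 561 with the drug against 463 and 500 with vehicle, and 0 of 6 tested passed, with 0 at an unadjusted p under 0.05 and 0 with the block. TG, the thyroid hormone precursor, read 47.2 and 6.42 with CEP701, and NKX2-1, a thyroid and lung transcription factor, read 16.3 and 3.53. All 4 of these signals were under the minimum. Of the 10 erythroid and megakaryocyte markers, 2 rose with CEP701 and 0 fell (20.0%, against 5.78% of all genes). At an unadjusted p under 0.05, 2 were higher and 1 was lower, and with the block 3 were higher and 1 lower. Their median difference was 0.095, against 0.099 over all genes. Their summed signal was 40887 to 41888 against 23524 to 24594, a rise that was mostly THBS1. THBS1, a thrombospondin of platelets, read 16268 and 17122 with the drug and 948 and 876 with vehicle (limma adjusted p = 1.76e-03), and EPOR, the erythropoietin receptor, 524 and 540 against 205 and 293 (limma adjusted p = 0.0290, a call kept in 11 of 20 alternatives). Of the 10 phagocyte markers 0 passed with CEP701, with 2 higher and 1 lower at an unadjusted p under 0.05. The block also gave 2 higher and 1 lower, where 21.5% of all genes were called. The summed signal of the 10 was 8282 to 9438 against 5655 to 5696. The part of these markers in the DUOX2 values was not tested.

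The genes whose centred log2 profile over the 8 arrays lay closest to that of DUOX2, out of 14161, were PAPPA, GBP4, TSKU-AS1, RDH10 and DUOXA2. Their root mean square distances were 0.581, 0.806, 0.837, 0.883 and 0.919 log2 units, and their Pearson r with DUOX2 were 0.956, 0.919, 0.969, 0.904 and 0.928. PAPPA, a metalloprotease of the insulin-like growth factor system, read 679 and 801 with CEP701, against 24.2 and 5.23 with DMSO. GBP4, an interferon-inducible guanylate-binding protein, read 1810 and 1929 against 214 and 145. RDH10, a retinol dehydrogenase, read 6063 and 6033 against 733 and 723. These 8 points come from 4 groups and are set mainly by the 2 CEP701 arrays, so the likeness is a description.

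**Figure D2:**
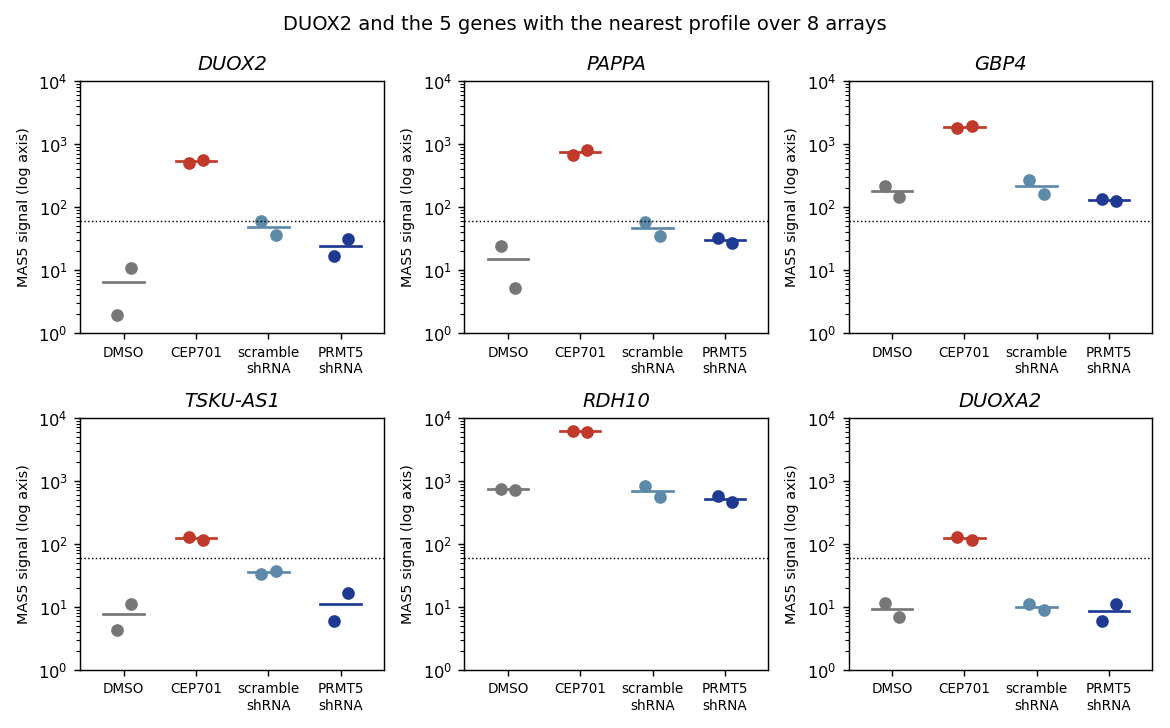
MAS5 signal (log axis) of DUOX2 and of the 5 genes with the closest profile, by group. Points are arrays, with 2 per group, the bar is the group mean and the dotted line is the minimum of 60.0. Each of these genes is highest on the 2 CEP701 arrays, PAPPA at 679 and 801.

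The other calcium-driven oxidases and NOX4 were dim on every array, with signals of 1.33 to 100.1 on the chosen probe sets. DUOX1, the paralogue of DUOX2, read 49.8 and 44.7 with CEP701, against 74.8 and 14.8 with DMSO. It read 72.1 and 53.9 with scramble and 9.68 and 58.2 with PRMT5 shRNA. The 2 DMSO arrays alone span almost the whole range, and only 2 of the 8 arrays were above the minimum. CEP701 minus DMSO was 0.32 ± 0.76 (SE; limma adjusted p = 0.839) and PRMT5 shRNA minus scramble -0.98 ± 0.76 (adjusted p = 0.883). Its 2 dimmer probe sets gave signals of 2.27 to 53.6, all under the minimum.

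NOX5 read 53.9 and 74.1 with CEP701, 62.2 and 57.6 with DMSO, 100.1 and 68.6 with scramble and 34.6 and 69.4 with PRMT5 shRNA. On this probe set the groups overlapped within each arm. On the dimmer one, above the minimum on 1 array, they did not. It read 47.3 and 50.8 with CEP701 and 45.0 and 3.33 with DMSO (1.12). It read 49.95 and 74.6 with scramble and 19.0 and 47.2 with PRMT5 shRNA (-0.80). The 1.12 is between signals under the minimum and rests mainly on the DMSO array at 3.33. Such gaps were found for 36.3% of all genes with CEP701 higher and for 16.1% with PRMT5 shRNA lower. On the chosen probe set CEP701 minus DMSO was 0.07 ± 0.46 (SE; limma adjusted p = 0.943) and PRMT5 shRNA minus scramble -0.64 ± 0.46 (adjusted p = 0.867). NOX4, a constitutively active oxidase, read 19.4 and 15.5 with CEP701, 1.33 and 2.75 with DMSO, 23.7 and 45.5 with scramble and 3.14 and 32.8 with PRMT5 shRNA. None of these signals, nor those of its other probe set, reached the minimum, so NOX4 was not tested and its values carry no order. Of the related catalytic subunits, NOX1, the oxidase of colon epithelium, read 52.0 to 96.0 over the 8 arrays and did not pass in either arm (adjusted p = 0.551 and 0.925), and NOX3, known from the inner ear, read 4.80 to 25.3 and was not tested.

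**Figure D3:**
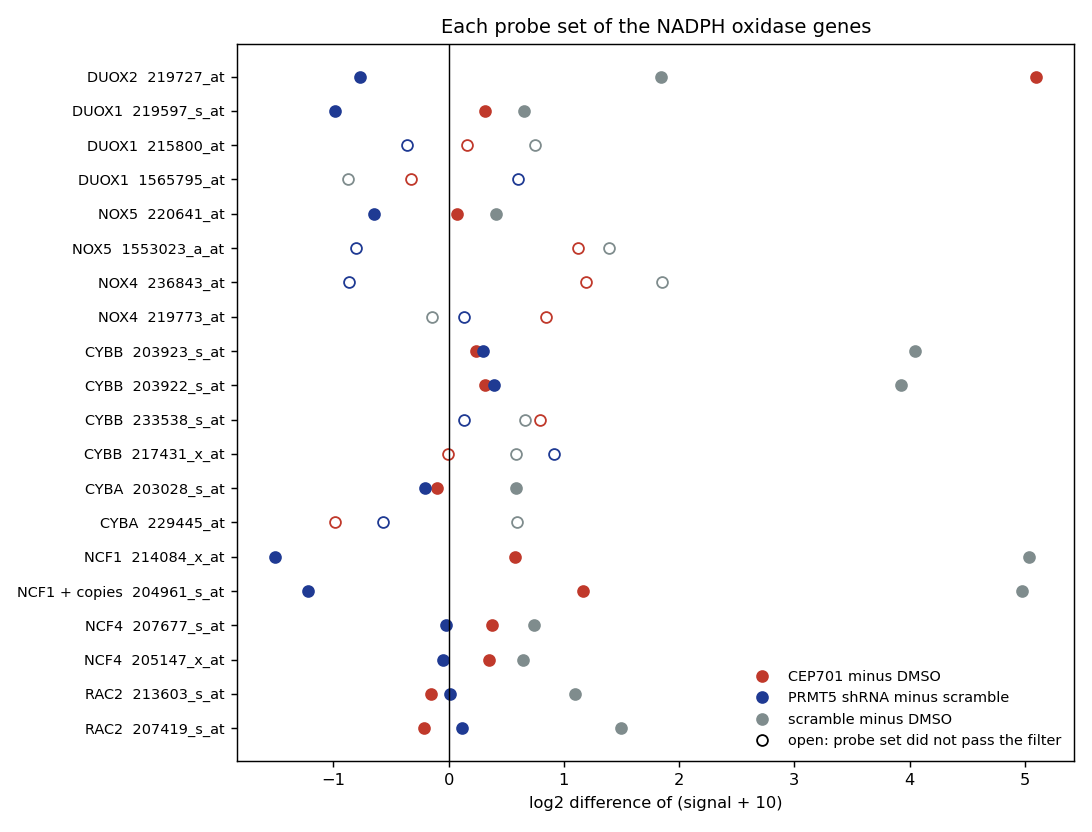
Difference between groups on the log2(signal + 10) scale (x axis) for the 19 probe sets that name 1 oxidase gene and the probe set that names NCF1 with its copies. Colours mark the 3 comparisons, and open circles are probe sets below the minimum. The 2 brighter CYBB probe sets give 4.05 and 3.93 for scramble minus DMSO.

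The membrane core of the phagocyte oxidase did not pass the test within either arm. CYBB read 179 and 250 with CEP701, against 185 and 169 with DMSO. CEP701 minus DMSO was 0.24 ± 0.23 (SE; limma adjusted p = 0.562), with overlapping groups. In the shRNA arm it read 3729 and 2564 with scramble and 3695 and 3925 with PRMT5 shRNA, which overlap too, and the difference was 0.30 ± 0.23 (adjusted p = 0.883). CYBA, which stabilises CYBB, read 4364 and 3782 with CEP701 and 4127 and 4590 with DMSO, and the difference was -0.10 ± 0.15 (adjusted p = 0.722). It read 7129 and 6000 with scramble and 5762 and 5585 with PRMT5 shRNA. Both knockdown arrays were below both scramble arrays, as for 16.1% of all genes, but the difference of -0.20 ± 0.15 did not pass (adjusted p = 0.865). CYBC1, a chaperone that CYBB and CYBA need for their assembly, did not pass in either arm (0.03 and -0.30; adjusted p = 0.961 and 0.901).

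Of the cytosolic regulators, NCF1 gave the largest fitted difference among the 8 tested members in the shRNA arm. It read 3211 and 2998 with scramble and 1537 and 768 with PRMT5 shRNA. Both knockdown arrays were well below both scramble arrays but far apart from each other. For 16.1% of all genes both knockdown arrays were below both scramble arrays. The difference was -1.50 ± 0.31 (SE), 2.84-fold lower, and -1.06 and -1.95 within the pairs. It did not pass over all genes (unadjusted p = 8.95e-04; limma adjusted p = 0.182) and passed with the replicate block (adjusted p = 0.0115), 1 of 19 alternatives and the only such one. The adjusted p over those alternatives ran from 0.0115 to 0.666. In all, 0 of 8 members passed in this arm, against 0.148% of all genes, and DUOX2 was among the 8 through its CEP701 arrays. With the block 1 passed, against 1.5% of all genes. At an unadjusted p under 0.05, 1 was lower, against 338 higher and 609 lower of 14162 genes.

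NCF1 has near-identical pseudogene copies, so probe sets can take up their transcripts. A probe set that names NCF1 together with NCF1B and NCF1C read 1866 and 2216 with scramble and 1142 and 658 with PRMT5 shRNA, a difference of -1.22, at -0.70 and -1.74 within the pairs. It moved the same way as the probe set that names NCF1 alone.

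Among the 10 phagocyte markers, the granule genes ELANE, AZU1, PRTN3 and MPO were lower on the knockdown array of each pair. ELANE, the neutrophil elastase, read 8460 and 11642 with scramble and 2244 and 6951 with PRMT5 shRNA. AZU1, another azurophil granule protein, gave -1.41 (limma adjusted p = 0.662), PRTN3 -1.08 (adjusted p = 0.829) and MPO -0.39 (adjusted p = 0.970). Of the 10 phagocyte markers 0 passed, 2 were lower at an unadjusted p under 0.05, 1 was lower with the block, and their median was -0.42 against 0.00 over all genes. Their summed signal was 62502 and 75613 with scramble and 44465 and 76043 with PRMT5 shRNA. The remaining markers went both ways, from -1.15 for ITGAM (733 and 1579 with scramble, 410 and 557 with PRMT5 shRNA) and -0.45 for CSF3R to -0.07 for FCN1, -0.02 for CD14, 0.14 for LYZ and 0.41 for S100A12. The part of these markers in the NCF1 difference was not tested.

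**Figure D4:**
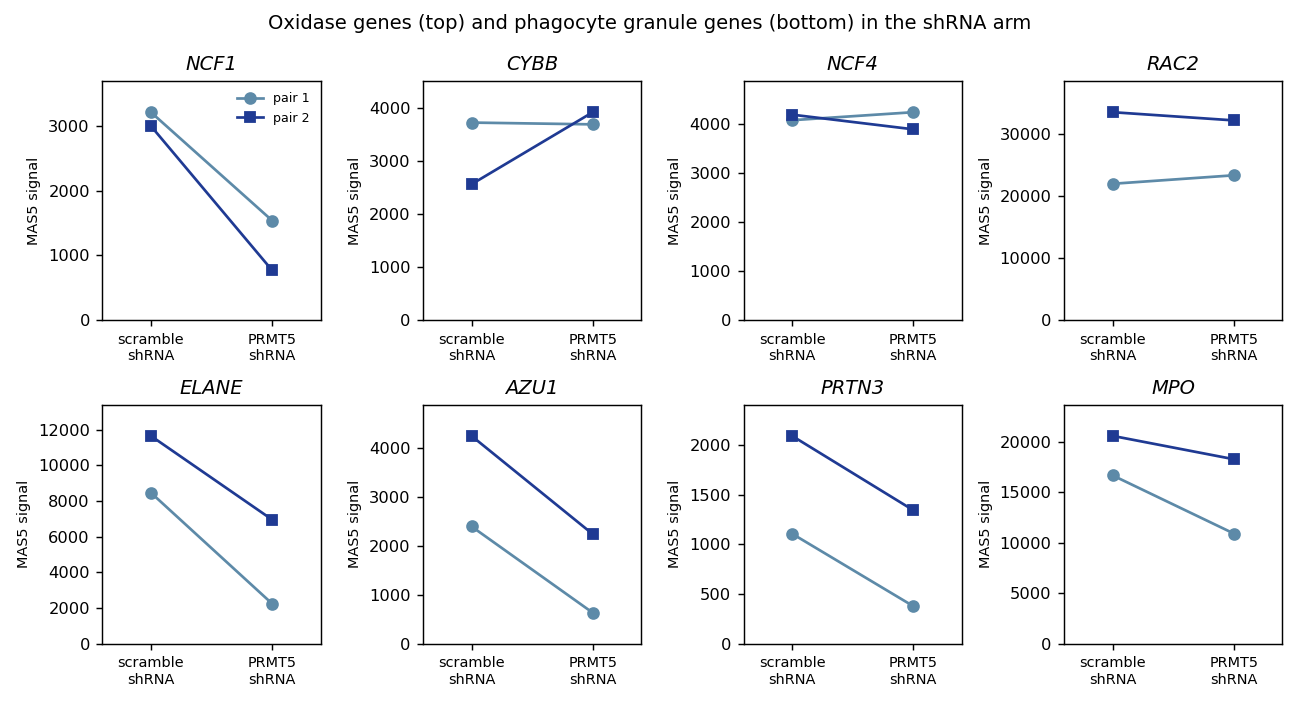
MAS5 signal (linear axis from 0) of NCF1, CYBB, NCF4 and RAC2 in the top row and of the granule genes ELANE, AZU1, PRTN3 and MPO in the bottom row on the shRNA arm arrays. Lines join the scramble and PRMT5 shRNA arrays that share a title suffix. NCF1 is lower with PRMT5 shRNA in both pairs, at 1537 against 3211 and at 768 against 2998, as are the 4 granule genes. Phagocyte markers that are not drawn went both ways.

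In the drug arm NCF1 was not far above the minimum. It read 132 and 133 with CEP701, against 70.7 and 102 with DMSO. The CEP701 arrays were above the DMSO arrays, as were those of 36.3% of all genes, and the difference of 0.58 ± 0.31 (SE) did not pass (limma adjusted p = 0.296). The CEP701 effect exceeded the PRMT5 shRNA effect by 2.08 ± 0.45, which did not pass (adjusted p = 0.0591). It passed with the block (adjusted p = 2.64e-03), without the first PRMT5 shRNA array (2.58, adjusted p = 0.0304) and without the second (1.59, adjusted p = 0.0485). In this test of the difference between the effects, 0 of 7 members passed, against 1.43% of all genes. With the block 1 (NCF1) passed, against 16.2%. At an unadjusted p under 0.05, 1 was higher, against 1717 higher and 1097 lower of 14162 genes.

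NCF4, which binds phosphoinositides at the phagosome, was the member nearest to a call with CEP701. It read 3300 and 3115 with CEP701 and 2510 and 2437 with DMSO, without overlap, as for 36.3% of all genes. The difference was 0.37 ± 0.13 (SE; unadjusted p = 0.0183, limma adjusted p = 0.121), and the second NCF4 probe set gave 0.35. It passed in 2 of 20 alternatives, in a fit of the drug arm's 2 groups alone (adjusted p = 0.0245) and with a block on the replicate number (adjusted p = 0.0329), and was -0.13 when arrays were scaled to the poly-A controls. In the shRNA arm NCF4 read 4078 and 4191 with scramble and 4241 and 3892 with PRMT5 shRNA, and the difference was -0.03 ± 0.13 (adjusted p = 0.995).

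RAC2, a small GTPase of blood cells, read 11297 and 11518 with CEP701, against 12672 and 12683 with DMSO. The CEP701 arrays were lower, as for 25.7% of all genes, and the difference of -0.15 ± 0.21 (SE) did not pass (limma adjusted p = 0.699). It read 21997 and 33549 with scramble and 23365 and 32225 with PRMT5 shRNA, and the difference was 0.01 ± 0.21 (adjusted p = 0.997). The first arrays of each shRNA group were both dimmer than the second ones. RAC1, the widely expressed relative, read 12019 to 14803 over the 8 arrays and did not pass in either arm (-0.11 and 0.21; adjusted p = 0.633 and 0.816). Of the 7 members tested with CEP701, 0 passed, against 5.78% of all genes, and 1 passed with the block, against 21.5%. At an unadjusted p under 0.05 there was 1 (NCF4), against 2092 higher and 1307 lower of 14162 genes.

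**Figure D5:**
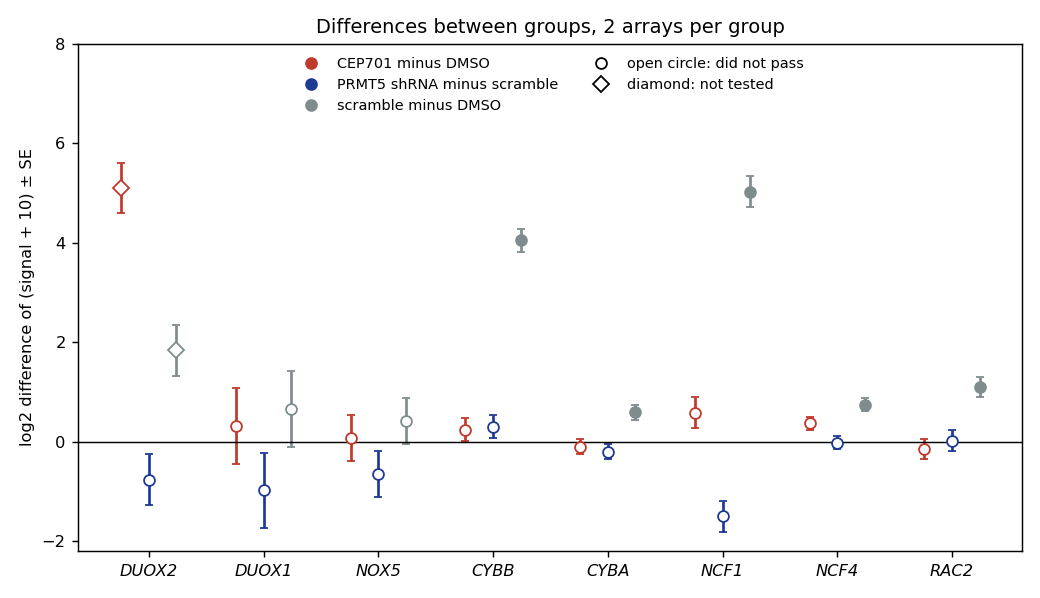
Difference between groups on the log2(signal + 10) scale, with its SE, for the 8 oxidase genes that met the minimum. Filled circles passed the test, open circles did not, and diamonds mark DUOX2 where it was not tested. With CEP701, DUOX2, chosen for its signal there, lies at 5.10 and the other 7 genes between -0.15 and 0.58.

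Between the arms, 5 of 7 tested members were higher with scramble than with DMSO: CYBB, CYBA, NCF1, NCF4 and RAC2, the subunits of the phagocyte oxidase. For comparison, 45.8% of all genes passed in this comparison and 25.5% were higher, and the median of all genes was 0.11. CYBB went from 177 ± 11.4 to 3147 ± 824 (SD, n = 2), higher by 4.05 ± 0.23 on the log2 scale (SE), 16.6-fold (limma adjusted p = 2.01e-06). NCF1 went from 86.5 ± 22.3 to 3105 ± 151, higher by 5.03 ± 0.31, 32.7-fold (adjusted p = 3.24e-06). Not even the extremes met: the lowest shRNA arm array was 10.3 times the highest drug arm array for CYBB and 5.79 times for NCF1. Groups that do not overlap, with scramble above DMSO, were found for 40.8% of all genes.

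The other 3 members differed less. RAC2 was higher by 1.10 ± 0.21 (SE; limma adjusted p = 2.14e-03), and its second probe set gave 1.5. NCF4 was higher by 0.74 ± 0.13 (adjusted p = 1.47e-03) and CYBA by 0.59 ± 0.15 (adjusted p = 9.22e-03). The calls of NCF4 and CYBA were lost when arrays were scaled to their median (0.38 and 0.22; adjusted p = 0.108 and 0.372) or to the poly-A controls (0.33 and 0.18; adjusted p = 0.330 and 0.627), settings that took the all-gene median from 0.11 to -0.23 and -0.27. That of CYBA was also lost without the first DMSO array (adjusted p = 0.0780) and without the first scramble array (0.0502). DUOX1 (0.66, adjusted p = 0.515) and NOX5 (0.41, adjusted p = 0.503) did not pass.

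The phagocyte markers differed between the arms in the same direction. All 10 passed as higher with scramble than with DMSO, against 25.5% of all genes. ELANE, PRTN3, CD14, FCN1 and S100A12 met the minimum only through the shRNA arm arrays, where they are high. MPO was above it on these and on 1 CEP701 array, at 63.5. The count of 10 is therefore no support. On both DMSO arrays 6 of the 10 were under the minimum, so their differences have no set size. The 3 above it on both, LYZ, ITGAM and AZU1, were higher by 2.48, 2.58 and 5.4 on the log2 scale. MPO, the granule peroxidase that uses the hydrogen peroxide of this oxidase, read 16676 and 20593 with scramble and 20.8 and 41.4 with DMSO. ELANE read 3.78 and 6.56 with DMSO. The part of these markers in the difference of the oxidase subunits was not tested.

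The stretches upstream of CYBB and NCF1 are shown because these members differed most between the arms. They are chrX:37779809-37780058 and chr7:74773761-74774010, both read 5′ to 3′ on the plus strand up to the base before the annotated start, in RefSeq (GRCh38.p14), with motif matches in capitals.
CYBB: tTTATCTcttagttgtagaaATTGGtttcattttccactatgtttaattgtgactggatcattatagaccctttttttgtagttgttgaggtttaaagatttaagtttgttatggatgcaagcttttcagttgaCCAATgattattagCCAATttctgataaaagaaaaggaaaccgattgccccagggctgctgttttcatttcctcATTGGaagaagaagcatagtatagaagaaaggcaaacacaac
NCF1: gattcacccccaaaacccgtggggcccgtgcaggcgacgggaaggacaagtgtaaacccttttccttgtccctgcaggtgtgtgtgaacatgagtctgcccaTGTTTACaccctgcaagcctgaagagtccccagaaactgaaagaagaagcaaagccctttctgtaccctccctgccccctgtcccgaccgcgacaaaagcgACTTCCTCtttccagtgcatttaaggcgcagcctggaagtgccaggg
The CYBB stretch holds CCAAT 4 times on either strand (found in 32% of windows of this length) and the GATA motif AGATAA once, as TTATCT (9.17%). The NCF1 stretch holds the PU.1 motif GAGGAAGT, as ACTTCCTC (2.17%), and the FOXO motif GTAAACA, as TGTTTAC (2.98%). RefSeq promoter entries matched 7 of the 9 members, and NCF4 and RAC2 had none in the table used.

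The wider pathway was described with 4 lists. Of the oxidase partners, 10 were tested. With CEP701 the only call was DUOXA2, which entered the test through the arrays where it is high, so the count is no support for the list. With PRMT5 shRNA 0 passed, with 0 at an unadjusted p under 0.05 and 0 with the block. Between the arms 4 were higher and 0 lower with scramble (40.0%, against 45.8% of all genes): SH3PXD2B, an organiser protein (3.31), HVCN1, the proton channel that balances the oxidase's charge (2.13), CYBC1 (1.08) and RAP1A, a small GTPase found with the phagocyte oxidase (0.58, a call kept in 10 of 20 alternatives and turned where probe sets were averaged, at -0.49 with a limma adjusted p of 0.0190). DUOXA1 had no probe set that names it alone and was not analysed here.

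Among the 17 tested activators, the kinases, exchange factors and calcium-binding proteins that switch the oxidases on, 0 rose and 1 fell with CEP701 (5.88%, against 5.78% of all genes). That gene was PRKCA, a protein kinase C, at 1.86 and 1.97 against 29.8 and 48.5 with DMSO, a difference between signals that were all under the minimum (limma adjusted p = 0.0234, a call kept in 12 of 20 alternatives). The block gave 0 higher and 3 lower activators with CEP701, where 21.5% of all genes were called. With PRMT5 shRNA 0 of 17 passed, with 0 at an unadjusted p under 0.05 and 0 with the block. With scramble against DMSO 7 were higher and 1 was lower (47.1%, against 45.8% of all genes). S100A8 and S100A9, a calcium-binding pair of phagocytes, read 21961 and 25622 and 9925 and 10109 with scramble, and PRKCA 1724 and 2928. All 3 were under the minimum on every drug arm array and met it only through the shRNA arm. No size is given, and the count of 7 is no support for the list. DOCK2, an exchange factor for RAC, was higher by 1.35. VAV3, another exchange factor, was lower, at -0.55, in a call kept in 13 of 20 alternatives.

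Of 22 tested genes that remove or use superoxide and peroxide, 1 rose and 0 fell with CEP701 (4.55%, against 5.78% of all genes). Catalase, CAT, rose from 11190 ± 691 to 24050 ± 1143 (SD, n = 2), by 1.10 ± 0.20 (SE; limma adjusted p = 0.0178). It read 11678 and 10701 with DMSO and 24858 and 23241 with CEP701, and it passed in 13 of 20 alternatives, with adjusted p from 1.03e-04 to 0.218. The block gave 2 higher and 4 lower of the 22 with CEP701, where 21.5% of all genes were called. With PRMT5 shRNA 0 of 22 passed, with 4 higher and 1 lower at an unadjusted p under 0.05 and 2 higher with the block. For the difference between the effects 1 of the 22 passed (4.55%, against 1.43% of all genes). At an unadjusted p under 0.05, 1 was higher and 4 were lower. The block also gave 1 higher and 4 lower, where 16.2% of all genes were called. The 1 that passed was TXNRD1, a thioredoxin reductase (-1.0, limma adjusted p = 0.0368), a call that held in 9 of 19 alternatives. It read 4726 and 4169 with CEP701, 5573 and 5748 with DMSO, 4904 and 4503 with scramble and 7412 and 7362 with PRMT5 shRNA. Against DMSO, 10 of the 22 were higher and 4 lower with scramble (63.6%, against 45.8% of all genes). Among the 10, AQP9 and PXDN met the minimum only through the shRNA arm, and MPO through it and 1 CEP701 array. The count is therefore no support for the list. SOD2, the mitochondrial superoxide dismutase, was higher by 2.27, while SOD1, the cytosolic one, fell by 1.25, PRDX1, a peroxiredoxin, by 1.02 and GPX7, a peroxidase of the endoplasmic reticulum, by 1.81.

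Of 12 tested regulators of CYBB and the phagocyte oxidase genes, 2 rose and 1 fell with CEP701 (25.0%, against 5.78% of all genes). SATB1, a chromatin organiser, rose by 1.11 (limma adjusted p = 0.0263) and STAT5B, a target of JAK2 signalling, by 0.82 (adjusted p = 0.0306), while CEBPA, a myeloid transcription factor, fell by 0.89 (adjusted p = 0.0358). These calls held in 11, 12 and 15 of 20 alternatives. The block gave 5 higher and 1 lower of the 12 with CEP701, where 21.5% of all genes were called. With PRMT5 shRNA 0 of 12 passed, with 0 at an unadjusted p under 0.05 and 0 with the block. With scramble against DMSO 4 were higher and 2 lower (6 of 12, against 45.8% of all genes). IRF8, a factor that drives CYBB in monocytes, was higher by 4.45, SATB1 by 3.25, CUX1, a repressor of CYBB, by 1.64 and CEBPB by 1.54, while CEBPA fell by 1.46 and STAT5A by 0.68. The drug arm's contrasts and the contrast between the arms share the DMSO arrays.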

How the data were processed

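Each of the 8 arrays carries 54675 probe sets. The deposited intensity values are linear MAS5 signals that the authors computed in Affymetrix Expression Console, per the submitters' processing notes (no version given). The mean of each array without its lowest and highest 2% of values is the same, a scaling that hides any global change. Probe sets were named from the platform annotation: 41097 name 1 gene, 1801 several and 11777 none, and 41043 symbols were updated through Entrez identifiers. Only probe sets naming 1 gene entered the tests.

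Signals above 60.0 on at least 2 arrays were required, 10 was added, log2 was taken, and the probe set of highest mean stood for a gene, giving 14162 genes. A single model of all 8 arrays, with 4 group means, was fitted with limma 3.58.1 (functions lmFit and eBayes, trended variance; 4 residual and 5.37 prior degrees of freedom) in R 4.3.3 with version 1.17.8 of data.table. The calculation was tested on simulated data. Paired shRNA arrays share a title suffix and deviated together from their group means (r = 0.323 across genes). Blocked counts therefore stand beside the within-arm counts of members and lists that they change. Drug arrays share only a number (r = -0.0115), and the blocked fit paired them by it as well. Probe sets other than the chosen one served as a check. Alternatives covered the added constant, the filter, the scaling, the choice of probe set, the variance trend, the block, the groups fitted and leaving out each array. The genes described, the lists and the alternatives were chosen with earlier results of these data known. Named genes are the 9 members, their direct partners, up to 4 genes per list, direction and comparison that passed, and the 5 closest profiles to DUOX2. Promoter stretches and gene order are RefSeq's (GRCh38.p14).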

Additional observations from a re-analysis of the deposited data

Results flagged for a closer look

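Both members below had both treated arrays above both control arrays in the drug arm and below them in the shRNA arm. Taken singly, the first pattern was found for 36.3% of all genes and the second for 16.1%. All DUOX2 signals in the shRNA arm, 16.5 to 59.8, were under the minimum, so its direction there says little. For DUOX2 the CEP701 effect exceeded the PRMT5 shRNA effect by 5.87 on the log2(signal + 10) scale (7.48 with 1 added to the signals and 3.77 with 50 added). This difference was not tested, because the CEP701 response led to the choice of the gene. For NCF1 the CEP701 effect exceeded the PRMT5 shRNA effect by 2.08 ± 0.45 (SE), which did not pass (limma adjusted p = 0.0591; 2.64e-03 with the replicate block). Its signals in the drug arm, 70.7 to 133, were far below those of the shRNA arm, 768 to 3211.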

How the results depend on the processing

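The number of members called with scramble against DMSO, 5 in the main setting, was 3 with median scaling and 3 with poly-A control scaling, which drop CYBA and NCF4. With the replicate block 1 member was called with CEP701 (NCF4), 1 with PRMT5 shRNA (NCF1) and 1 for the difference of effects (NCF1), and with only the 2 groups compared in the fit 1 was called with CEP701 (NCF4), against 0 in the main setting for each. The block changed no other call of a member. Leaving out 1 array at a time gave 0 to 0 members called with CEP701, 0 to 0 with PRMT5 shRNA, 0 to 1 for the difference of effects (NCF1, without either PRMT5 shRNA array) and 4 to 5 between the arms. DUOX2 and DUOXA2 could not be fitted without either CEP701 array, since they then no longer met the minimum. DUOX2 with scramble against DMSO was 3.0 with 1 added and 0.79 with 50 added. Directions that turned all belonged to differences that had not passed, RAP1A apart (-0.49 between the arms with the mean of probe sets). With CEP701, NOX5 was -0.16 with quantile normalization, -0.15 with median scaling and -0.37 with poly-A scaling, which also gave CYBB -0.24, DUOX1 -0.092 and NCF4 -0.13. With PRMT5 shRNA, RAC2 was -0.0081 with median scaling and NCF4 0.0091 with poly-A scaling. For the difference of effects, CYBA was -0.12 with median scaling and -0.43 with poly-A scaling, and NCF4 -0.14 with the latter. Leaving out 1 array at a time, values with CEP701 ran from -0.20 to 0.0037 for CYBA, -0.13 to 0.27 for NOX5 and -0.57 to 0.38 for DUOX1. With PRMT5 shRNA they ran from -0.29 to 0.32 for RAC2, -0.087 to 0.037 for NCF4 and -0.32 to 0.066 for DUOXA2. For the difference of effects they ran from -0.33 to 0.21 for CYBB, -0.019 to 0.23 for CYBA and -0.47 to 0.14 for RAC2, and between the arms from -0.23 to 0.84 for DUOX1. The causes were not tested. Over all genes, CEP701 gave 530 higher and 289 lower calls, but 238 and 672 with median scaling, 82 and 886 with poly-A scaling and 3040 calls in all with the block. The all-gene median with CEP701 moved from 0.10 to -0.14 and -0.38 under these scalings. Scramble against DMSO gave 3608 higher and 2878 lower calls, but 2435 and 4257 with median scaling, 2036 and 3644 with poly-A scaling and 3034 and 3120 with quantile normalization. Without 1 array of the drug arm, 6 to 50 genes were called with CEP701, and 167 without the variance trend. Signals under 60.0 limit DUOX1, NOX4, NOX5 and, outside the CEP701 arrays, DUOX2.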
